A study of Mus musculus with 20 samples.

Results

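The alpha class glutathione transferases are a small family of cytosolic detoxification enzymes that are abundant in the liver. They were read here in liver RNA of mice given Nafion byproduct 2, a fluorinated ether sulfonic acid. The members are every row of the deposited probe table whose symbol is Gsta1, Gsta2, Gsta3, Gsta4 or Gm3776, with all probes kept. That gives 5 of the 21450 gene symbols and 8 of the 30146 probes: 1 each for Gsta1 and Gsta4, and 2 each for Gsta2, Gsta3 and Gm3776. All 8 passed the filter on low counts. The family was chosen by earlier results of these data, the higher counts of Gsta1 and Gm3776 at 3 and 6 mg/kg than in controls. The members' differences at 3 and 6 mg/kg are therefore given as a description without a p-value. Counts of members that pass a threshold there test nothing.

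The assay was TempO-Seq, in which detector oligonucleotides anneal side by side on a target RNA, are ligated and then counted by sequencing. A count therefore belongs to a short stretch of the transcript and not to its whole length, and levels are compared between animals for the same probe, never between probes. The livers came from male Balb-C mice aged 10 to 12 weeks, gavaged once a day for 7 days, with 4 animals in each of 5 groups. The groups were a vehicle control and Nafion byproduct 2 at 0.03, 0.3, 3 or 6 mg/kg per day; no other treatment or allele is named. The protocol gives deionized water as the control vehicle while the control titles carry the word DMSO, and which of these was given is not settled here. Each library came from its own animal.

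Glutathione transferases join the thiol of glutathione to reactive, electron-poor compounds, and the conjugates are then pumped out of the cell and trimmed to mercapturates. The alpha class also reduces lipid hydroperoxides through a selenium-independent peroxidase activity. Within the class, Gsta4 is the form specialised for 4-hydroxynonenal and related products of lipid peroxidation, and mouse Gsta3 is known for conjugating the epoxide of aflatoxin B1. Gsta1 and Gsta2 are the inducible mouse forms, long used as readouts of NRF2, the factor that binds antioxidant response elements and that KEAP1 holds back. The nuclear receptors CAR and PXR and the aryl hydrocarbon receptor also act on genes of the class.

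Gsta1, Gsta2, Gsta4 and Gm3776 lie together on mouse chromosome 9, and Gsta3 lies apart on chromosome 1. On GRCm38, with GENCODE M21 gene models, Gsta4 spans chr9:78182774-78209349, Gsta1 chr9:78230656-78242684 and Gm3776 chr9:78257129-78269166, all on the plus strand. Gsta2 spans chr9:78331018-78355788 on the minus strand, and Gsta3 chr1:21240589-21265661 on the plus strand. All 5 are annotated as protein coding. The longest coding transcripts of Gsta1 and Gm3776 were identical at 870 of 874 aligned bases (99.5%), and 82.9% of the 50-base windows of Gsta1 occurred unchanged in Gm3776. Gsta2 was 97.2% identical to each of them and shared 44.6% of the Gsta1 windows. Gsta3 and Gsta4 were 60.5% to 69.6% identical to one another and to the other transcripts, with 0 windows shared. Gm10639, a neighbouring alpha class gene that is not a member, held 30.8%, 44.5% and 39.5% of the windows of Gsta1, Gsta2 and Gm3776. Probe sequences were not used here, so a probe named for Gsta1, Gsta2 or Gm3776 may also read the other transcripts of this trio or Gm10639. The trio is reported as uncertain at the level of the single gene. Gsta3 and Gsta4 share no such window with any member.

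The promoter windows are shown because Gsta1, Gm3776 and Gsta2 were high in the same livers. RefSeq sequences on GRCm38.p6 matched 4 of the 5 members, each running from 250 bases before to 50 after the annotated start, 5′ to 3′ on the gene's own strand. The windows are chr9:78230419-78230718 (plus strand) for Gsta1, chr9:78256879-78257178 (plus) for Gm3776, chr9:78347096-78347395 (minus) for Gsta2 and chr1:21240335-21240634 (plus) for Gsta3. The Gsta2 window lies inside the GENCODE span given above and not at its end at chr9:78355788, so it follows a different annotated start. Capitals mark GCGTG, the core of the xenobiotic response element, in the first 3 and TGACATTGC, a match to the antioxidant response element pattern TGACNNNGC, in Gsta3.
Gsta1: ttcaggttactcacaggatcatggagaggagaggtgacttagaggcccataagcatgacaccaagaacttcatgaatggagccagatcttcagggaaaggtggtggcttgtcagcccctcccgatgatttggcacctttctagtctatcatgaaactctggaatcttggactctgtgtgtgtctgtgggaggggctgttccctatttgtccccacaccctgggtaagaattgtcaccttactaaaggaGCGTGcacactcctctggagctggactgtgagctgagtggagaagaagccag
Gm3776: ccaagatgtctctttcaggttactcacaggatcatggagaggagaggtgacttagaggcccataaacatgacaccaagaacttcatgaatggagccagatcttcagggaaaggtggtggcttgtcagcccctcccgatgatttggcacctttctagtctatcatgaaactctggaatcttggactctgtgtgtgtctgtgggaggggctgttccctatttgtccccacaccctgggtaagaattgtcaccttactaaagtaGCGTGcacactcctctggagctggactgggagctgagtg
Gsta2: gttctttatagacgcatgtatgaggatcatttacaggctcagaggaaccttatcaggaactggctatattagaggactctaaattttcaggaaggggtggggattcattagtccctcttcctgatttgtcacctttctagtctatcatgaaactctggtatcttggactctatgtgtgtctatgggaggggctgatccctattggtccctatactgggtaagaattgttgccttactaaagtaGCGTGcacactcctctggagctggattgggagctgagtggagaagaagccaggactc
Gsta3: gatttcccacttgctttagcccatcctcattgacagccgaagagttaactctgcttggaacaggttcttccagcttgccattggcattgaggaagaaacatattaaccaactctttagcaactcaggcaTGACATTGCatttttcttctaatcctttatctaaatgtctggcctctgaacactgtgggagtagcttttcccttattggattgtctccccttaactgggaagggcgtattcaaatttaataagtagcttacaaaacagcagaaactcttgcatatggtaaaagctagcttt

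The Gsta1 and Gm3776 windows were nearly the same sequence, identical at 284 of 287 aligned bases (99.0%), whereas Gsta1 and Gsta2 were 77.7% identical. Both strands were searched for 4 patterns that do not overlap one another in these windows. GCGTG began at position -2 from the start in Gsta1, -7 in Gsta2 and 11 in Gm3776, and 32.4% of the 32851 promoter windows of the same length hold it. TGACNNNGC began at -121 in Gsta3 and occurs in 12.4% of windows. The AP-1 pattern TGANTCA (7.81% of windows) and the nuclear receptor pattern AGGTCA (16.3%) had no match in the 4 windows. These are matches of letters in a short window and are not evidence of binding.

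Each library held between 6823518 and 10310931 counts. A level of 1 CPM is 1 count in every 1e+06 of the library after TMM scaling, and 3 counts were worth 0.251 to 0.511 CPM. Replicate 4 at 3 mg/kg and replicate 4 at 6 mg/kg stood apart. Of 744 genes with at least 2 well-measured probes, 118 (15.9%) in the first and 34 (4.57%) in the second had probes that disagreed by more than 4-fold against their usual ratio, compared with 0 to 3 genes in each of the other 18 libraries. Their mean correlation with their own group was 0.849 and 0.931, and at least 0.932 in the others. The value of 0.931 is close to the 0.932 to 0.935 of the other 3 mg/kg livers, whose means include their replicate 4. The other 6 mg/kg livers had 0.960 to 0.965. The members' fold changes, their share of counts, their correlations with each other and the list counts at 6 mg/kg are given with and without them. The plate position in the titles put control and 0.03 mg/kg in row A and 3 and 6 mg/kg in row B, with 0.3 mg/kg in A except for 1 library in B. Row and dose therefore largely cannot be told apart for 3 or 6 mg/kg against control. The comparison of 0.03 mg/kg with control lies within row A, and 6 against 3 mg/kg within row B.

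Gsta1 covered the widest fold range of the 8 probes across the 20 livers. Its probe Gsta1_31374 read 24.2, 21.5, 28.5 and 20.0 CPM in the 4 controls and 1612, 1808, 1618 and 1384 CPM at 6 mg/kg. At 3 mg/kg it read 175, 325 and 464 CPM in 3 livers and 13.7 CPM in replicate 4. The 3 livers lay far above every control, and replicate 4 lay below all of them. The group means were 23.6 ± 3.71 CPM in controls, 244 ± 194 at 3 mg/kg and 1606 ± 173 at 6 mg/kg (SD, n = 4 each), and without the 2 libraries 321 ± 145 and 1680 ± 111 CPM (SD, n = 3 each). The log2 fold change was 3.37 (SE 0.62) at 3 mg/kg and 6.09 (SE 0.70) at 6 mg/kg, and 3.76 and 6.17 without the 2 libraries. The 6 mg/kg group exceeded the 3 mg/kg group by 2.72 (SE 0.60) on the log2 scale, or 2.41 without them, and the groups did not overlap. In raw reads, the probe went from 153 to 264 counts per control library to 13429 to 14841 counts at 6 mg/kg, so counting error is small at both ends.

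Gm3776, annotated as a protein-coding gene between Gsta1 and Gsta2, followed the same order over control, 3 and 6 mg/kg. Its probe Gm3776_29765 read 44.3, 38.7, 42.6 and 36.5 CPM in controls, 184, 359, 412 and 89.5 CPM at 3 mg/kg, and 1339, 1259, 1123 and 1109 CPM at 6 mg/kg. Its probe Gm3776_78554 read 14.4, 15.5, 13.2 and 13.6 CPM in controls, 35.8, 57.6, 61.0 and 55.9 CPM at 3 mg/kg, and 181, 192, 175 and 136 CPM at 6 mg/kg. By either probe the control, 3 mg/kg and 6 mg/kg livers formed 3 ranges without overlap, replicate 4 included. The log2 fold changes at 3 and 6 mg/kg were 2.69 (SE 0.33) and 4.90 (SE 0.36) for the first probe. For Gm3776_78554 they were 1.89 (SE 0.18) and 3.59 (SE 0.19). Leaving out the 2 libraries gave 2.97 and 4.95 for the first and 1.86 and 3.71 for the second.

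The pair of Gm3776 probes moved by different amounts. The ratio of Gm3776_29765 to Gm3776_78554 within a liver lay between 2.50 and 3.24 in controls and between 6.42 and 8.15 at 6 mg/kg, so the ranges did not overlap. At 3 mg/kg it reached 6.76, and it was 1.60 in replicate 4. The ratio of Gsta1_31374 to Gm3776_29765 also differed by dose, from 0.546 to 0.668 in controls to 1.20 to 1.44 at 6 mg/kg, with 0.153 in replicate 4 at 3 mg/kg. Whether the probes read 1 transcript of the trio or several was not tested.

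Gsta2, the other inducible form, was higher at both top doses by both of its probes. Gsta2_31572 read 81.5, 94.0, 61.7 and 67.9 CPM in controls, 136, 235, 251 and 101 CPM at 3 mg/kg, and 487, 454, 440 and 337 CPM at 6 mg/kg. All 4 livers at 3 mg/kg lay above the controls, with replicate 4 the nearest, and all 4 at 6 mg/kg lay above those at 3 mg/kg. Gsta2_67405 gave a much weaker signal, with 4.74, 5.21, 2.91 and 7.53 CPM in controls, 17.0, 26.6, 29.8 and 3.81 CPM at 3 mg/kg and 48.4, 49.9, 40.8 and 29.1 CPM at 6 mg/kg. Here replicate 4 at 3 mg/kg fell within the control range. The log2 fold changes for Gsta2_31572 were 1.24 (SE 0.23) at 3 mg/kg and 2.49 (SE 0.24) at 6 mg/kg, and 1.44 and 2.61 when the 2 libraries were left out. For Gsta2_67405 they were 1.91 (SE 0.46) and 3.05 (SE 0.46), and 2.27 and 3.21 without the 2 libraries. The probe ratio within a liver was 9.02 to 21.2 in controls and 9.10 to 11.6 at 6 mg/kg, ranges that overlap.

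**Figure D1:**
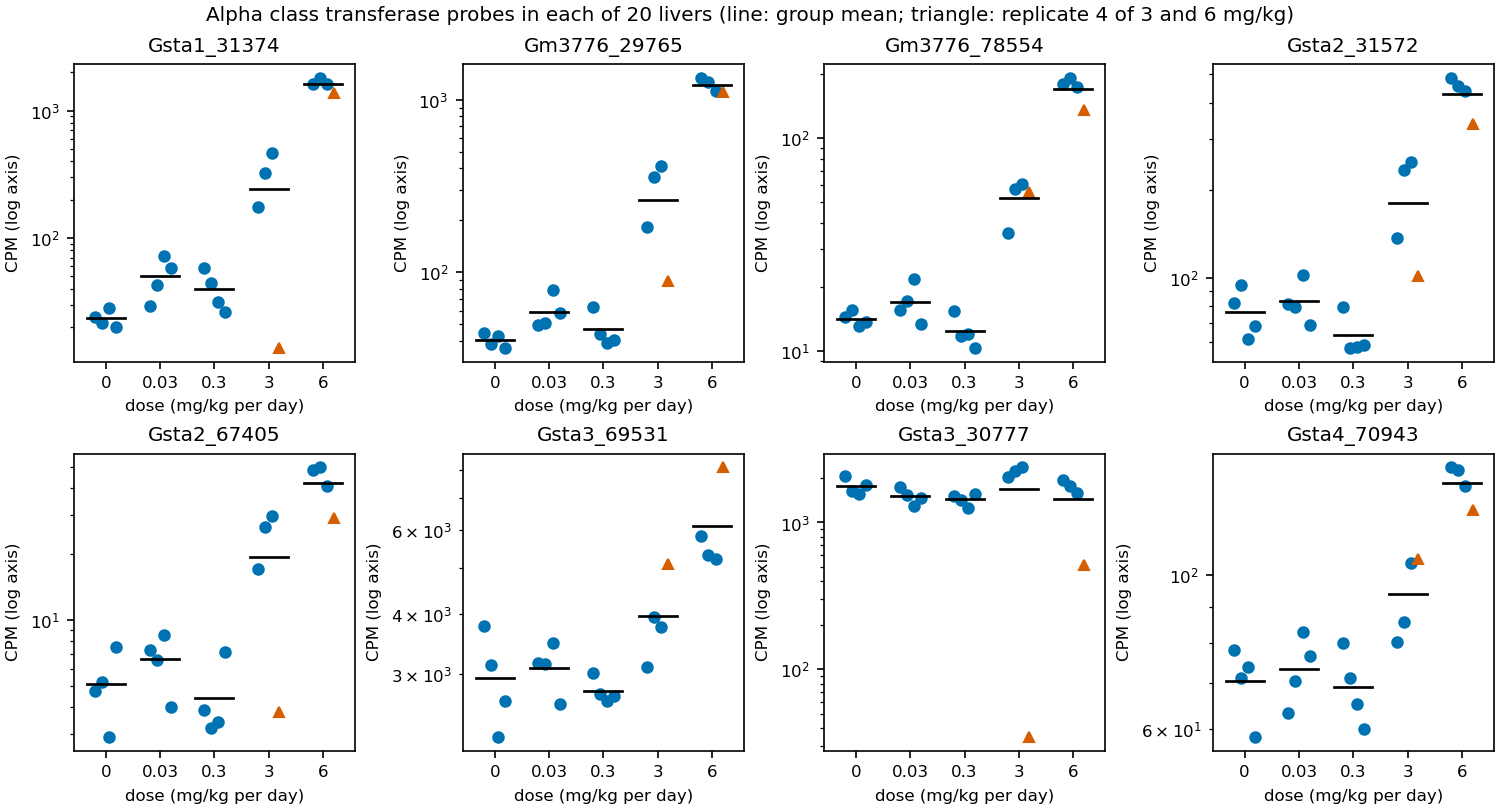
Level of each of the 8 probes in each of 20 livers, in CPM on a log axis, against dose in mg/kg per day; points are livers, lines are group means and triangles are replicate 4 at 3 and at 6 mg/kg. The 6 mg/kg livers lie above all others for Gsta1, Gm3776 and Gsta4, the groups overlap for Gsta3_30777, and the triangle for Gsta1 at 3 mg/kg (13.7 CPM) lies under all controls.

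Gsta3 gave different answers by probe. Gsta3_69531 read 3778, 3131, 2213 and 2639 CPM in controls, 3104, 3946, 3759 and 5082 CPM at 3 mg/kg, and 5814, 5326, 5222 and 8111 CPM at 6 mg/kg. The 6 mg/kg livers lay above all others, with replicate 4 the highest, while the 3 mg/kg livers overlapped the controls. Gsta3_30777 read 2076, 1646, 1560 and 1790 CPM in controls, 2050, 2251, 2386 and 34.4 CPM at 3 mg/kg, and 1937, 1763, 1580 and 510 CPM at 6 mg/kg. For this second probe the groups overlapped, and both low values came from the libraries that stand apart. In the other livers, those at 3 mg/kg (2050 to 2386 CPM) overlapped the controls and lay above those at 6 mg/kg (1580 to 1937 CPM). At 3 mg/kg the log2 fold change was 0.43 (SE 0.18) for Gsta3_69531 and -0.07 (SE 0.64) for Gsta3_30777. Leaving out replicate 4 at 3 mg/kg gave 0.30 and 0.34. The log2 fold change at 6 mg/kg was 1.06 (SE 0.18) for Gsta3_69531 and -0.29 (SE 0.64) for Gsta3_30777. Without the 2 libraries it was 0.91 (SE 0.14) for the first, and 0.01 (SE 0.12) for Gsta3_30777.

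The split between the Gsta3 probes appeared at the top dose in every liver. The ratio of Gsta3_69531 to Gsta3_30777 was 1.42 to 1.90 in controls, 1.51 to 1.75 in 3 livers at 3 mg/kg, and 3.00 to 3.31 in 3 livers at 6 mg/kg. In replicate 4 it reached 148 at 3 mg/kg and 15.9 at 6 mg/kg. Among the 744 genes with several probes, Gsta3 had the 5th largest disagreement in the former library and the 7th largest in the latter. GENCODE lists 4 transcripts of Gsta3, 3 of them coding. Which of these each probe reads was not tested.

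**Figure D2:**
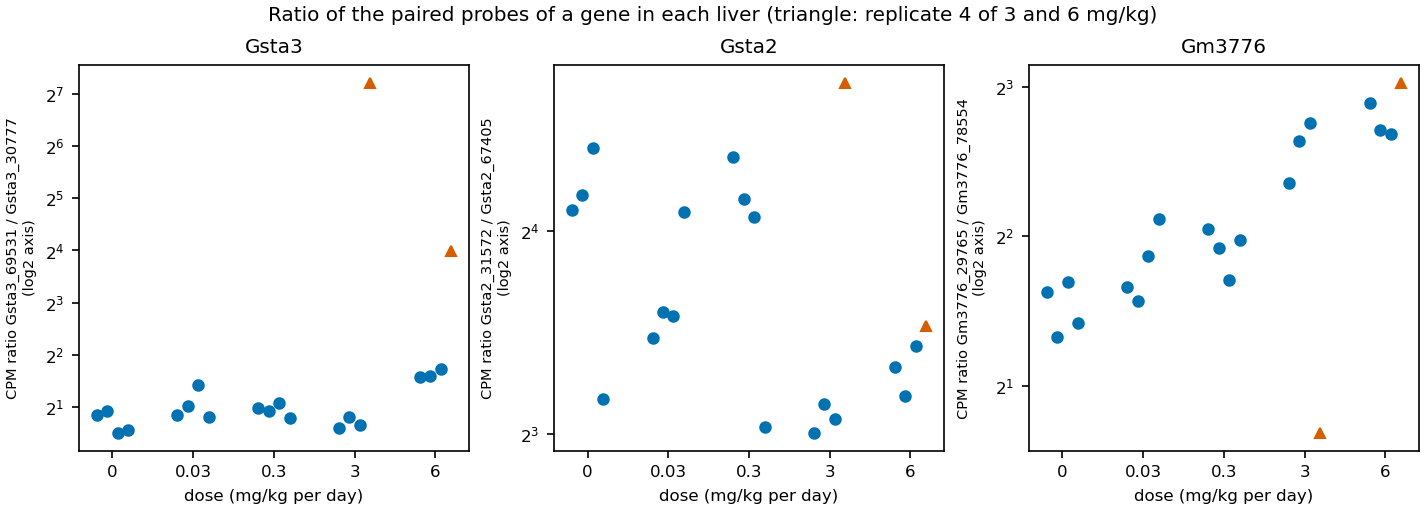
Ratio of the paired probes of Gsta3, Gsta2 and Gm3776 within each liver (log2 axis) against dose in mg/kg per day; points are livers and triangles are replicate 4 at 3 and at 6 mg/kg. The Gsta3 ratio is 3.00 to 3.31 in 3 livers at 6 mg/kg against 1.42 to 1.90 in controls, and the Gm3776 ratio is 6.42 to 8.15 against 2.50 to 3.24.

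Gsta4, the 4-hydroxynonenal form, varied little within groups, with an SD of 6.47% to 13.7% of the group mean. Gsta4_70943 read 78.1, 71.1, 73.9 and 58.4 CPM in controls, 80.2, 85.8, 104 and 106 CPM at 3 mg/kg, and 143, 142, 134 and 124 CPM at 6 mg/kg. The 3 groups did not overlap, although the lowest liver at 3 mg/kg was close to the highest control. The means were 70.4 ± 8.48, 93.9 ± 12.8 and 136 ± 8.79 CPM (SD, n = 4 each). The log2 fold change was 0.42 (SE 0.14) at 3 mg/kg and 0.95 (SE 0.14) at 6 mg/kg, and 0.35 and 1.01 without the 2 libraries.

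At 0.03 and 0.3 mg/kg the edgeR test found no member probe past its threshold of 0.05. These tests share their controls with each other and with the higher doses. Gsta1 read 29.2, 42.8, 72.4 and 58.3 CPM at 0.03 mg/kg, each above the highest control at 28.5 CPM. At 0.3 mg/kg it read 58.7, 44.3, 31.6 and 26.1 CPM, with 3 of 4 above the controls. The edgeR log2 fold changes were 1.10 (SE 0.58, adjusted p = 0.9996) and 0.77 (SE 0.58, adjusted p = 0.741), and 1.11 and 0.78 on the 18 other libraries. Gm3776_29765 read 49.4, 50.9, 79.2 and 58.0 CPM at 0.03 mg/kg, also above every control, and its log2 estimate was 0.55 (SE 0.31, edgeR adjusted p = 0.9996). At 0.3 mg/kg it read 63.5, 44.2, 39.1 and 40.6 CPM and overlapped the controls. For Gsta3_30777 the estimates at these doses were -0.22 and -0.30, and for the other 5 probes they lay between -0.27 and 0.38.

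The other probes overlapped the controls at both low doses. At 0.3 mg/kg 3 of 4 livers lay below every control for Gsta2_31572, Gm3776_78554 and Gsta3_30777. At 0.03 mg/kg 3 of 4 lay below for Gsta3_30777 and 3 of 4 lay above for Gm3776_78554. The Gm3776 probes had log2 estimates of opposite sign at 0.3 mg/kg, 0.21 (SE 0.31) for Gm3776_29765 and -0.20 (SE 0.18) for Gm3776_78554. Gsta2_31572 lay at 68.4 to 102 CPM at 0.03 mg/kg and 57.2 to 79.4 CPM at 0.3 mg/kg. Gsta3_69531 lay at 2593 to 3475 and 2631 to 3011 CPM, and Gsta4_70943 at 63.4 to 82.8 and 60.0 to 79.9 CPM. At 0.03 mg/kg, 2 of 8 member probes had all 4 treated livers above all controls, as did 2.01% of all 14122 probes tested, and at 0.3 mg/kg 0 of 8 did, against 3.33%. The edgeR test called 0 members and 0% of all probes at either dose. Without adjustment 457 probes had p under 0.05 at 0.03 mg/kg and 1175 at 0.3 mg/kg, and 0 members were among them. DESeq2 called 2 and 28 probes, 0 of them members. The median log2 fold change over the 8 member probes was 0.19 at 0.03 mg/kg and -0.14 at 0.3 mg/kg, beside -0.00 and 0.00 over all probes.

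The counts of calls at the higher doses describe the family only. At 3 mg/kg 5 of the 8 member probes passed the edgeR threshold and were higher, where 1.11% of all probes were called higher. All 5 were probes of Gsta1, Gsta2 and Gm3776, which share sequence and may read the same transcripts. At 6 mg/kg 7 of 8 passed, all except Gsta3_30777, where 11.6% of all probes were called higher, and 0 members were called lower at either dose, where 0.382% and 8.73% of all probes were. For 6 against 3 mg/kg 6 of 8 were called higher and 0 lower, with 3.96% and 2.77% of all probes. All treated livers lay above all controls for 4 of 8 probes at 3 mg/kg (3.35% of all probes) and 7 of 8 at 6 mg/kg (13.2%), and 6 of 8 lay higher at 6 than at 3 mg/kg without overlap (5.9%). Without the 2 libraries that stand apart the members called higher were 5, 7 and 7 in these comparisons. Over all 14271 probes tested in that fit, 203, 2003 and 1279 were called higher. For 6 against 3 mg/kg 3 were called without replicate 1 at 3 mg/kg, where 190 of 14438 probes were called higher. Without its replicate 4, 7 were called, where 1662 of 14350 probes were called higher. Because the genes were chosen with these contrasts known, the counts describe the family and test nothing. The members' median log2 fold change was 1.57, 2.77 and 1.19 in the 3 comparisons, beside 0.00, 0.01 and 0.04 over all probes. By mean level, the order from the lowest group for Gsta1 was control, 0.3, 0.03, 3 and 6 mg/kg, and only the last step was free of overlap. The 0.3 mg/kg mean was the lowest, below control, for Gm3776_78554, Gsta4_70943 and both probes of Gsta2 and of Gsta3. With plate row as a covariate 0 members were called at 3 mg/kg and 5 at 6 mg/kg, where 1 and 254 of 14122 probes were called higher. That fit takes the row effect from the single 0.3 mg/kg library in row B, and its estimates at 6 mg/kg were 6.87 (SE 1.47) for Gsta1_31374 and 5.17 (SE 0.75) for Gm3776_29765. The 6 members called for 6 against 3 mg/kg compare livers within row B, but take their spread from all 20 libraries, and a fit on those 8 libraries alone called 1 member and 11 probes in all.

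**Figure D3:**
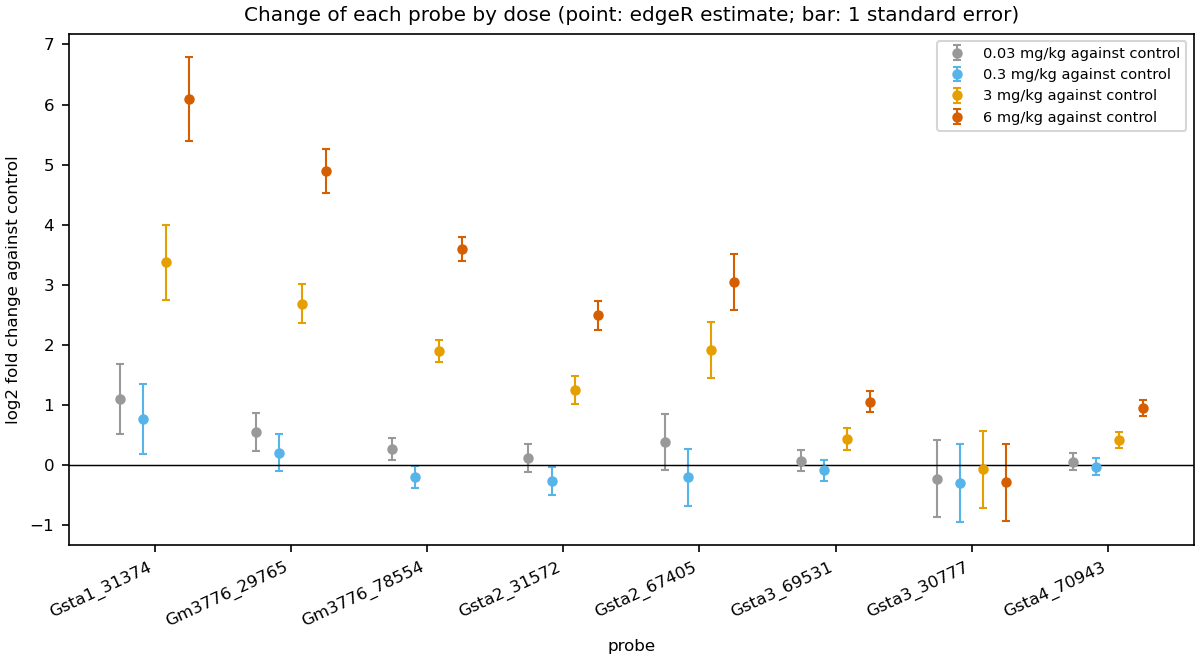
Log2 fold change of each of the 8 probes against control at 0.03, 0.3, 3 and 6 mg/kg; points are edgeR estimates and bars are 1 standard error. At 6 mg/kg the estimates run from -0.29 for Gsta3_30777 to 6.09 for Gsta1_31374, and at the 2 low doses the bars of most probes cross 0.

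Together the 8 probes took 0.469 ± 0.0773% of all counts in controls and 1.17 ± 0.152% at 6 mg/kg (SD, n = 4 each). The ranges were 0.375% to 0.555% and 1.04% to 1.38% and did not overlap. Without replicate 4 the 6 mg/kg share was 1.10 ± 0.0697% (SD, n = 3). The Gsta3 probes made up 94.4% to 95.9% of the family's counts in controls and 64.5% to 73.4% at 6 mg/kg, or 64.5% to 67.0% without replicate 4. Since probes differ in efficiency, these shares describe the assay's signal and not molecules.

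The members of the chromosome 9 trio were closely correlated across livers. Over the 20 libraries, the Pearson correlation of log2 CPM was 0.970 between Gsta1_31374 and Gm3776_29765, 0.983 between Gsta2_31572 and Gm3776_29765, 0.973 between the Gm3776 probes and 0.946 between the Gsta2 probes. On the 18 other libraries these were 0.993, 0.984, 0.991 and 0.956. Over all probe pairs of the trio the lowest value was 0.885, and 0.916 on the 18 libraries. Gsta4, outside the trio, correlated with the trio's probes at 0.761 to 0.952, and at 0.820 to 0.949 on the 18. High correlation was therefore not particular to the trio. The Gsta3 probes correlated at -0.35 over the 20 libraries and at 0.42 over the 18 without those that stand apart. These values are a description, since the points share the dose groups and the trio shares sequence.

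The genes whose level tracked each member most closely over the 20 libraries differed by member. For Gsta1 they were Gm3776 (0.970), Gsta2 (0.943), the mu class transferases Gstm1 (0.942) and Gstm2 (0.933), and Psmd5 (0.926), a proteasome assembly chaperone. For Gsta2 they were Gm3776 (0.983), the fatty acid hydroxylases Cyp4a10 (0.945) and Cyp4a14 (0.943), Gsta1 (0.943) and Gadd45b (0.938). Gm3776 was followed by Gsta2 (0.983), Gsta1 (0.970), Ugdh (0.952), Elovl6 (0.951) and Gstm3 (0.943). Gsta3, read by Gsta3_69531, was tracked by Decr1 (0.979), an enzyme of unsaturated fatty acid oxidation, then Inmt (0.962), Ces2a (0.960), Sar1b (0.947) and Retsat (0.947). Gsta4 was tracked by Prelid2 (0.967), Eci1 (0.965), Gstm4 (0.962), the fatty acid elongase Elovl6 (0.960) and Aldh1a7 (0.952). Only probes that averaged 20 CPM or more were eligible, and livers of a group share their dose. The 2 libraries that stand apart are included, and these correlations were not computed without them. Those libraries held the highest Gsta3_69531 values of their groups, 5082 CPM at 3 mg/kg and 8111 CPM at 6 mg/kg.

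Genes around the family were read from 7 lists of 176 genes, with 1 probe for each gene, of which 149 were tested. At 6 mg/kg 10.9% of all genes tested rose and 9.63% fell by the edgeR test, with a median log2 fold change of -0.02. At 3 mg/kg 1.13% rose and 0.406% fell. At 0.03 and 0.3 mg/kg 0 genes of any list passed. Of the 74 list genes called at 6 mg/kg, 71 were also called in the same direction without the 2 libraries that stand apart, and the 3 others were Abcc6, Prdx6 and Gstm5, named after their values were seen. A further 16 genes were called only without these libraries.

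On the list of other glutathione transferases, 12 of 22 genes tested rose and 0 fell at 6 mg/kg, with a median of 0.71. At 3 mg/kg 3 rose. The list also holds Clic1 and Clic4, proteins of a related fold. Clic4 is among the 12 (0.56, edgeR adjusted p = 0.016), and both were named after their values were seen. Gstm3, a mu class enzyme, rose from 1835 ± 200 CPM to 10040 ± 1483 CPM (SD, n = 4), or by 2.45 on the log2 scale (SE 0.17, edgeR adjusted p = 1.3e-08). The theta class gene Gstt3 rose by 2.74 (SE 0.21) and Gstm4 by 2.25 (SE 0.20). Gstp1, the pi class enzyme, went from 3960 to 2619 CPM and did not pass (log2 fold change -0.60, edgeR adjusted p = 0.134); it was named after its values were seen. The counts were 12 and 1 when the 2 libraries were left out, and 6 rose with plate row as a covariate.

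The supply of glutathione itself showed no common direction, with 4 of 18 genes higher and 3 lower at 6 mg/kg and a median of -0.01. Gss, the second enzyme of glutathione synthesis, rose by 0.93 (SE 0.15, edgeR adjusted p = 0.00019) on the log2 scale. Gsr, which reduces oxidised glutathione, rose by 0.97 (SE 0.16), and Oplah, which returns glutamate from 5-oxoproline, by 1.36 (SE 0.30). Of the genes on the route from methionine to cysteine, Mat1a fell by 0.997 (SE 0.16) and Cbs by 0.73 (SE 0.14), whereas Cth, which releases cysteine, rose by 0.98 (SE 0.25, edgeR adjusted p = 0.0095), and the transporter subunit Slc3a2 fell by 0.74 (SE 0.15). Neither subunit of the first and limiting enzyme of synthesis passed: Gclc was at -0.19 (SE 0.33) and Gclm at -0.00 (SE 0.21). Cth, Gclc and Gclm were named after their values were seen. Leaving out the 2 libraries gave 6 higher and 4 lower, and with plate row as a covariate 0 rose and 1 fell.

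Downstream of conjugation, 6 of 21 export and mercapturate genes rose at 6 mg/kg and 1 fell, with a median of 0.38. The canalicular pump Abcc2 rose from 174 ± 32.2 to 504 ± 161 CPM (SD, n = 4), by 1.53 (SE 0.21, edgeR adjusted p = 3.4e-05). The basolateral pump Abcc4 rose by 2.58 (SE 0.36) and the aminopeptidase Anpep by 1.64 (SE 0.21). The anion transporter Slc22a7 fell by 2.41 (SE 0.45) from a mean of 3.21 CPM. When the 2 libraries were left out 7 of the list rose and 2 fell, and with plate row as a covariate 1 rose and 0 fell.

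The other enzymes of lipid aldehyde and peroxide removal gave 11 of 26 genes higher and 0 lower at 6 mg/kg, with a median of 0.47. The aldehyde dehydrogenase Aldh1a7 rose from 73.4 ± 6.43 to 296 ± 30.3 CPM (SD, n = 4), by 2.01 (SE 0.16, edgeR adjusted p = 3.0e-08). Aldh1a1, which oxidises retinal and other aldehydes, rose by 2.69 (SE 0.27), and Aldh3a2, the fatty aldehyde dehydrogenase, by 2.22 (SE 0.26). On the 18 other libraries 12 rose and 0 fell, and with plate row as a covariate 5 rose.

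**Figure D4:**
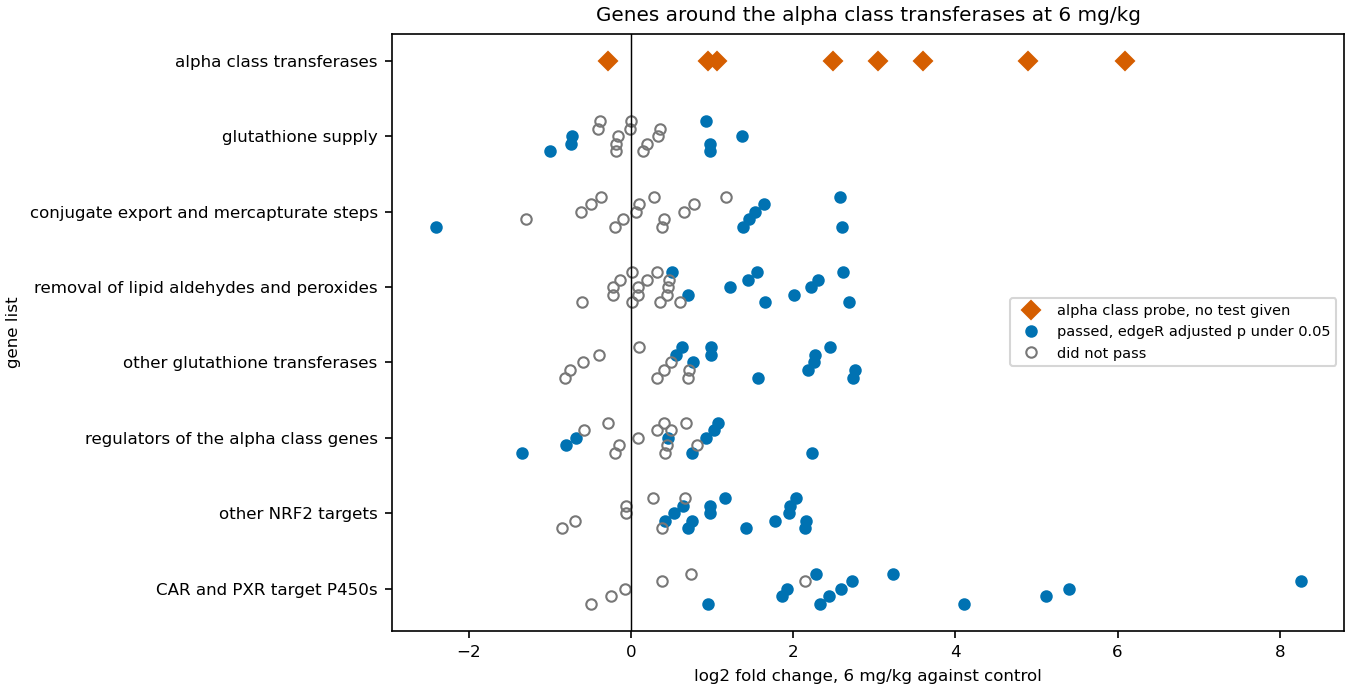
Log2 fold change at 6 mg/kg against control for the 8 alpha class probes (diamonds, no test given) and for the genes tested in 7 lists (circles, 1 probe per gene; filled where the edgeR adjusted p was under 0.05, open otherwise). Filled circles lie to the right of 0 in the list of other transferases, which includes Clic4 of a related fold (12 higher, 0 lower). They also do in the other NRF2 targets (15 higher, 0 lower) and in the P450 list, which includes the reductase Por (13 higher, 0 lower). They lie on both sides for glutathione supply (4 higher, 3 lower).

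The next lists hold targets of factors known to act on alpha class genes. Of 22 other NRF2 targets tested, 15 rose and 0 fell at 6 mg/kg, with a median of 0.73, and 3 rose at 3 mg/kg. Nqo1, the quinone reductase used as an index of NRF2, read 4.31 ± 0.512 CPM in controls, 4.34 at 0.03, 3.52 at 0.3, 7.51 at 3 and 19.3 ± 4.53 at 6 mg/kg (SD, n = 4). Its log2 fold change at 6 mg/kg was 2.16 (SE 0.20, edgeR adjusted p = 1.7e-07). Ugdh, which makes UDP-glucuronic acid, rose by 2.14 (SE 0.18) and the aldehyde oxidase Aox1 by 1.96 (SE 0.22). Among the targets that did not pass were Txnrd1 at -0.06, Pir at -0.06, Osgin1 at 0.27 and G6pdx at -0.69. These 4 were named after their values were seen. Of 19 genes on the list of P450s induced through CAR and PXR, 13 rose and 0 fell at 6 mg/kg, with a median of 2.28, and 8 rose at 3 mg/kg. That list also holds the P450 reductase Por and the heme enzyme Alas1, which are not P450s. Por is among the 13 (3.23, edgeR adjusted p = 4.0e-06), and Alas1 did not pass (2.15, edgeR adjusted p = 0.053). Both were named after their values were seen. Cyp2b10, the index gene of CAR, read 62.3 ± 26.6 CPM in controls, 72.4 at 0.03, 167 at 0.3, 581 at 3 and 2149 ± 1238 at 6 mg/kg (SD, n = 4). Its log2 fold change was 5.11 (SE 0.46, edgeR adjusted p = 3.9e-07), Cyp2a5 rose by 2.72 (SE 0.26), and Cyp2c66 rose by 8.25 (SE 0.53) from a control mean of 0.490 CPM, near the worth of 3 counts. Cyp3a11 (-0.50, edgeR adjusted p = 0.538) and Cyp2c29 (0.74, edgeR adjusted p = 0.195) did not pass, and were named after their values were seen. Cyp2c29 passed without the 2 libraries at 0.84 (edgeR adjusted p = 8.0e-05). On the 18 other libraries 16 NRF2 targets rose and 1 fell, Ugt1a6a at -0.61 (edgeR adjusted p = 0.00012), which was named after its values were seen. Of the P450 list 15 rose and 0 fell there, and the Cyp2b10 estimate was 4.65. With plate row as a covariate 8 NRF2 targets and 7 P450 list genes rose.

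Of the 21 regulators tested, 6 rose and 3 fell at 6 mg/kg, with a median of 0.41, and 0 were called at 3 mg/kg. Nfe2l2, which encodes NRF2, rose from 10.3 ± 3.11 to 21.7 ± 4.39 CPM (SD, n = 4), by 1.07 (SE 0.22, edgeR adjusted p = 0.0016). The level of Keap1 was 91.8 ± 14.0 and 97.2 ± 18.8 CPM, a log2 difference of 0.08 (SE 0.15, edgeR adjusted p = 0.725). Ahr, the aryl hydrocarbon receptor, rose by 2.23 (SE 0.39) and Jun by 1.02 (SE 0.22). Nr1i2, which encodes PXR, rose from 35.2 to 59.2 CPM, by 0.75 (SE 0.18, edgeR adjusted p = 0.0064). Nr1i3, which encodes CAR, went from 443 to 297 CPM and did not pass (-0.58, SE 0.21, edgeR adjusted p = 0.0608), but passed without the 2 libraries at -0.64 (edgeR adjusted p = 0.022). Cebpa, a hepatocyte factor, fell by 1.34 (SE 0.16), Ppara by 0.81 (SE 0.17) and Atf4 by 0.68 (SE 0.24). Leaving out the 2 libraries gave 6 higher and 5 lower, and with plate row as a covariate 0 rose and 1 fell.

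The liver label was checked against cell markers, and the level of some marker lists differed with dose. The summed level of 9 hepatocyte markers was 29435 to 36203 CPM in controls and 18007 to 24127 CPM at 6 mg/kg, and all 9 were above 3 counts in each group. The summed level of 10 lymphocyte and neutrophil markers was 5.97 to 18.7 CPM in controls. It was 24.8 to 45.4 CPM at 3 mg/kg and 39.0 to 63.2 CPM at 6 mg/kg. Of these markers 8 were above 3 counts in controls, 9 at 3 mg/kg and 7 at 6 mg/kg. Cd8a was at 0 in controls and also at 0.03 and 3 mg/kg. Kupffer cell markers were 132 to 193 CPM in controls and 86.7 to 142 at 6 mg/kg. Endothelial markers were 224 to 271 against 223 to 307 CPM, and stellate, cholangiocyte and erythroid ranges overlapped too. Exocrine pancreas markers summed to at most 1.97 CPM in any library. In bulk tissue, fewer cells of a type and less RNA per cell cannot be told apart, and the part of these shifts in the members' differences was not tested.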

How the data were processed

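Liver RNA of 20 mice was measured by TempO-Seq, 1 library per animal. The authors deposited whole-number counts of each probe for each mouse, and the values show no scaling. Bowtie and the build GRCm38.p5 were used by the authors, per the submitters' processing notes; how probes were counted is not given in the sources used here. Replicate numbers follow accession order and pair nothing. No copy was found among 30 pairs of libraries of a group (lowest chi-square per degree of freedom 4.04).

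Counts were fitted in edgeR 4.0.16 (R 4.3.3): filterByExpr, which kept 14122 probes of 10101 genes, TMM factors, and a robust quasi-likelihood fit to all 20 libraries with 1 mean per group. Benjamini-Hochberg adjustment covered all probes tested, and the threshold was 0.05. The SE is the log2 fold change over the root of the F statistic. CPM used TMM-scaled library sizes. Per gene, the probe with the highest mean count was used. The functions were tested on simulated counts. Amplified reads are not independent molecules, so floors cover counting error only.

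The members and lists were chosen with earlier results of these data known. Named genes are every member probe, up to 3 per list and direction by p at 6 mg/kg among those called, the 5 most correlated genes per member, and Nfe2l2, Keap1, Nr1i3, Nr1i2, Nqo1 and Cyp2b10. Alternatives were other scalings and count filters, DESeq2 1.42.0, limma-voom (limma 3.58.1), probes summed per symbol, a non-robust fit, only the 8 libraries compared, plate row, and libraries left out.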

Additional observations from a re-analysis of the deposited data

Results flagged for a closer look

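Within the 40 sets of 4 livers (8 probes in 5 groups), 3 had a liver far from its group by Dixon's test, where chance gives about 1 in 20. Gsta3_30777 read 34.4 CPM in replicate 4 at 3 mg/kg, where the other 3 livers read 2050 to 2386 CPM. That library is 1 of the 2 that stand apart, and its Gsta3_69531 value was the highest of its group. Gsta2_31572 read 79.4 CPM in replicate 1 at 0.3 mg/kg, with the others at 57.2 to 58.7 CPM. Gsta2_67405 read 7.17 CPM in replicate 4 at 0.3 mg/kg, with the others at 3.21 to 3.87 CPM.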

How the results depend on the processing

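No paired analysis was possible because the labels give no replicate numbers. At 3 mg/kg, 6 mg/kg and 6 against 3 mg/kg, all 378 values of the 7 probes other than Gsta3_30777 were above 0 over 10 other settings and with each of the 12 libraries of these groups left out. Gsta3_30777, with estimates of -0.07, -0.29 and -0.21, was above 0 in 6 of 54, from 0.01 at 6 mg/kg without the 2 libraries that stand apart to 0.72 by limma-voom for 6 against 3 mg/kg. At 0.03 or 0.3 mg/kg the estimates of Gsta3_69531, Gsta4_70943 and Gsta2_67405, all smaller than their SE, also changed sign under some settings. Over all probes edgeR called 0, 0, 211, 2867 and 950 at 0.03, 0.3, 3, 6 and 6 against 3 mg/kg. DESeq2 called 2 at 0.03, 28 at 0.3, 387 at 3 and 1439 at 6 against 3 mg/kg. Fits on only the 8 libraries compared called 4 at 0.3, 44 of 12717 probes at 3 and 11 of 12990 at 6 against 3 mg/kg. Members among these were 2 at 3 and 1 at 6 against 3 mg/kg. Plate row as a covariate called 1 at 3 mg/kg, with 0 members, and 508 at 6 mg/kg. Without the 2 libraries that stand apart, 1 was called at 0.03, 379 at 3, 3961 at 6 and 2478 at 6 against 3 mg/kg. At 3 mg/kg 3 members were called by limma-voom, where 112 of 14122 probes were called higher. With probes summed per symbol 3 of 5 genes were called, where 130 of 10245 symbols were called higher. These member counts describe the family and test nothing. Leaving out 1 library at a time gave 0 to 1 calls at 0.3 (1 without 0.3 mg/kg replicate 2), 124 to 279 at 3 and 2120 to 2998 at 6 mg/kg. Without control replicate 1, 2 or 4 the calls at 3 mg/kg were 124, 132 and 128. For 6 against 3 mg/kg the range was 302 to 3105: 302 without 3 mg/kg replicate 1, 408 without its replicate 2, 3105 without its replicate 4, and 503, 609 and 601 without 6 mg/kg replicates 2, 3 and 4. Members called there ran from 3 (without 3 mg/kg replicate 1) to 7. Scaling by total counts moved the median log2 fold change of all probes at 6 mg/kg from 0.01 to 0.15 and the share of calls that were higher from 57.0% to 70.0%, and from 58.8% to 77.1% for 6 against 3 mg/kg, with the members' calls the same in number. The cause of these shifts was not tested.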

Other observations

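Gm10639, a further alpha class gene of the chromosome 9 cluster (chr9:78289923-78305525, GRCm38, plus strand), is not among the members and was read by 1 probe near the floor. Its counts were 1 to 7 per library in controls, 3 to 12 at 0.03, 2 to 11 at 0.3, 2 to 12 at 3 and 39 to 59 at 6 mg/kg. The mean was 0.393 CPM in controls and 6.02 ± 1.45 CPM (SD, n = 4) at 6 mg/kg, where its edgeR log2 fold change was 3.86 (SE 0.60, adjusted p = 0.00012), higher than every control in 4 of 4 livers. It was looked at after the cluster's values had been seen. Its transcripts hold 30.8% of the 50-base windows of Gsta1, 44.5% of those of Gsta2 and 39.5% of those of Gm3776. Its probe is therefore also uncertain at the level of the single gene.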
